A study of Homo sapiens with 10 samples.

Results

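The genes of the core histone clusters were examined in 10 RNA-seq libraries of 2 human lung adenocarcinoma cell lines, H460 and A549. They were the rows of the deposited gene table whose symbol is a numbered H2AC, H2BC, H3C or H4C gene, together with the linker histone genes H1-1 to H1-5, and 65 of 46427 genes met this. They comprise 5 H1, 16 H2A, 17 H2B, 13 H3 and 14 H4 genes, of which 54 lie on chromosome 6 and 11 on chromosome 1. H460 gave 8 libraries: 3 of parental cells in adherent culture, 1 of cisplatin-resistant cells (CR), 2 of paclitaxel-resistant cells (PR), 1 of doxorubicin-resistant cells (DR) and 1 of tumor spheroid cells (TS), which the labels call CTC. CR cells are the H460 cells that outlived 3 days in 4 µM cisplatin and then 3 days in fresh medium, and PR and DR cells were made the same way with paclitaxel at 5 nM and doxorubicin at 0.5 µM. TS cells grew in suspension in serum-free medium with growth factors. A549 gave 1 adherent (2D) and 1 TS library. The 3 drugs thus stand on 4 libraries, and nothing in the labels says that same-group libraries came from separate cultures, so p-values measure the spread between these libraries, which may be technical.

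Replication-dependent histone genes are copied in S phase, when new DNA must be packed into nucleosomes. Their mRNAs normally end in a short stem-loop instead of a poly(A) tail, and the stem-loop binding protein SLBP holds that end through processing, export and decay. Some of these genes can also give a longer RNA that runs past the stem-loop to a poly(A) site, a form described in differentiated and non-dividing cells. H2A, H2B, H3 and H4 form the nucleosome core, and H1 binds the DNA between nucleosomes. The libraries were made by poly(A) selection, so every level below is one of polyadenylated histone RNA, and the stem-loop form, the bulk of histone mRNA in dividing cells, is largely outside the measurement.

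The stem-loop was looked for in GENCODE 29 transcripts (GRCh38), to show which annotated histone RNAs carry both ends. Of the 65 genes, 28 had a transcript with it. In the whole annotation, these genes included, 113 of 206694 transcripts had it (0.0547%), a share of transcripts and not of genes. The stem has 6 bases a side and the loop has 4, and the 6 distinct sequences follow with the loop in capitals. The absence of a match says only that the annotated transcript holds no such letters, since many of these models stop at the coding end.
Form in 15 genes, among them H2AC6, H2AC18 and H2BC21: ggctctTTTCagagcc
Form in 4 genes, among them H2BC4 and H2BC5: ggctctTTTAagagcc
Form in 4 genes, among them H4C8 and H4C5: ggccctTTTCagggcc
Form in 3 genes, H4C9, H4C14 and H4C15: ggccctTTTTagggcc
Form in H3C6: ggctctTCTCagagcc
Form in H2AC11: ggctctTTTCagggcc
In the H2AC6 transcript of 1654 bases, 1114 bases follow the stem-loop and AATAAA stands in the last 40 bases. The H2BC21 transcript of 2194 bases carries 1729 bases after it, and the longest H4C8 transcript, of 2163 bases, carries 1655.

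Promoters are shown for 4 genes whose RNA differed most between drug-resistant and parental cells among those with a mean of at least 1 FPKM (reads scaled for transcript length and library depth). They are RefSeq sequences (GRCh38.p14), 300 bases from before to just after the annotated start, written 5′ to 3′ on the gene's strand, with 3 sequence motifs found on either strand in capitals (the CCAAT box, the letters TATAAA of the TATA box, and the octamer ATTTGCAT bound by Oct factors). They lie at chr6:26056421-26056720 (minus strand) for H1-2, chr6:26123922-26124221 (plus) for H2AC6, chr1:149886633-149886932 (minus) for H2BC21 and chr6:26285485-26285784 (minus) for H4C8.
H1-2: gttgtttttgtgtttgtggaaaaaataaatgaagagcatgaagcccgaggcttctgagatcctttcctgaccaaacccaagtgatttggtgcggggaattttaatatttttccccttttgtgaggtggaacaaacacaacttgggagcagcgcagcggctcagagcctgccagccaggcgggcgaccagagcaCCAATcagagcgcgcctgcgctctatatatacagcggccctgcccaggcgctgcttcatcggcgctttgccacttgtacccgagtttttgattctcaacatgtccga
H2AC6: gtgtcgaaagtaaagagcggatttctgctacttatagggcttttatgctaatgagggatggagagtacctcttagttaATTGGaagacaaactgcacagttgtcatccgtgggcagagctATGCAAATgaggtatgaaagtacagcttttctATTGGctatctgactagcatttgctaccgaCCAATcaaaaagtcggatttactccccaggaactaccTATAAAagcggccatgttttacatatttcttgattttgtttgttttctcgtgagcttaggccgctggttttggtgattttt
H2BC21: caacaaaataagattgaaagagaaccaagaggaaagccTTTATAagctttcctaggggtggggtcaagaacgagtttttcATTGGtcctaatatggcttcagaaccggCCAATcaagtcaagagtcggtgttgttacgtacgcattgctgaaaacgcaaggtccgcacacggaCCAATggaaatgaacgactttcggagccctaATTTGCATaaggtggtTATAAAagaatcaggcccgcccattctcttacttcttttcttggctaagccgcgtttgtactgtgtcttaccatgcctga
H4C8: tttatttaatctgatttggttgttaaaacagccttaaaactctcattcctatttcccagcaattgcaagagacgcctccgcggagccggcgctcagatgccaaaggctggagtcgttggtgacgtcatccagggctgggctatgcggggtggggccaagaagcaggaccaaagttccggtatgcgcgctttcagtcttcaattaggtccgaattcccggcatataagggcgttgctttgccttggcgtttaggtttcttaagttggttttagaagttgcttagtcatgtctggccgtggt
A promoter was at hand for 60 of the 65 genes. CCAAT stood in 85.0% of them, against 39.7% of 27305 genes with a promoter of the same length. By class, it stood in 100% of the H1, H2A, H2B and H3 promoters but in 3 of 12 H4 promoters (25%). TATAAA stood in 70.0% of the 60, against 14% of all genes. The octamer ATTTGCAT stood in 73.3% of the H2A and 82.4% of the H2B promoters, against 2.19% of all promoters, and in 0 of 5 H1 and 0 of 12 H4 promoters. It was in 9 of the 23 promoters of genes that rose in drug-resistant cells (39.1%) and in 17 of the other 37 (45.9%). A match is a description of the letters, not a bound site.

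Library totals were 59499787 to 89541774 reads. KRT8 and KRT18, keratins of epithelial cells, were above 190 FPKM in each of the 10 libraries, while EPCAM was at most 0.114 and CDH1 at most 0.0268 FPKM in H460. Of the markers of other cells, the 4 endothelial genes summed to at most 0.484 FPKM, and the immune genes PTPRC and CD3E stayed under 1 FPKM everywhere. The 5 immune markers summed to 17.8 to 26.4 FPKM in parental and 42.2 to 72.5 FPKM in drug-resistant cells, nearly all of it CD14 and CD68. The 5 fibroblast markers summed to 1.29 to 6.00 and 6.05 to 19.6 FPKM. Their part in the histone results was not tested, and in bulk RNA fewer cells of a type and less RNA per cell cannot be told apart.

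Few of the cluster genes carried most of the signal. Over the 10 libraries 21 genes had a mean of at least 1 FPKM, 39 had less, and H2AC1, H2BC1, H4C6, H4C7 and H4C13 had no read in any library, which allows up to 3 reads in each. In the 3 parental libraries the 65 genes summed to 87.1, 102.5 and 72.4 FPKM. H2BC12, an H2B gene, supplied 48.4 to 52.2% of that sum. H1-2, a linker histone, supplied 6.07 to 12.0%.

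The summed level was higher in each drug-resistant library than in any parental one. It was 431 FPKM in CR, 287 and 387 FPKM in the 2 PR libraries and 418 FPKM in DR, and the mean of the 4 was 4.36-fold that of parental cells (381 ± 65.2 against 87.3 ± 15.1 FPKM, SD, n = 4 and n = 3). By class, the summed FPKM was 15.4-fold higher for H1, 5.64-fold for H2A, 2.60-fold for H2B, 3.39-fold for H3 and 3.45-fold for H4. H1-2 supplied 25.7 to 37.9% of the sum in these 4 libraries and H2BC12 21.5 to 24.5%. In reads, the 65 genes took 69.5 to 88.8 reads per 1000000 in parental and 273 to 388 in drug-resistant cells.

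**Figure D1:**
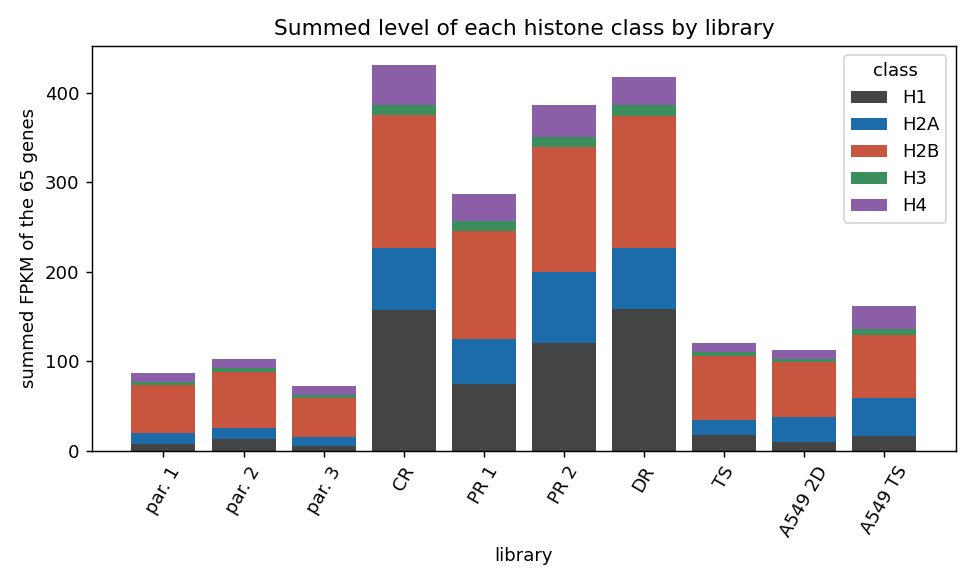
Stacked bars give the summed FPKM of each histone class (colour) in each of the 10 libraries, single libraries with no error bars. The 4 drug-resistant libraries stand at 287 to 431 FPKM, and the 6 others at 72.4 to 162 FPKM.

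The first comparison asked how cells that survived a drug differ from parental H460. Of the 65 genes, 23 rose, 3 fell and 11 others were tested without passing, while 28 were too low to be tested (at most 26 reads in any library of the fit). These are calls at an adjusted p under 0.05 by edgeR's quasi-likelihood test over 18398 genes, of which 18.5% rose and 15.3% fell. The median log2 fold change was 1.68 over the 37 tested histone genes and 0.06 over all tested genes, while DESeq2, which tested more genes of low count, gave 1.15 and 0.537. Of the 37, 31 had at least 10 reads in each parental library, and so had 20 of the 23 that rose. In each of the 23 the 4 drug-resistant FPKM values lay above all 3 parental values, and in 22 each of the 4 was over 2-fold the parental mean. Of the 56 histone genes with a read in these libraries, 25 lay wholly above and 7 wholly below. Of all 31956 genes with a read in them, 17.6% and 8.34% did.

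Among linker histones, H1-2 rose and was the most abundant of the 65 in drug-resistant cells. Its FPKM was 6.93, 12.3 and 4.39 in parental cells, 157 in CR, 73.7 and 119.7 in PR and 158 in DR. The lowest drug-resistant value, in PR replicate 1, lay far above the highest parental one. The log2 fold change was 3.94 ± 0.41 (SE, adjusted p = 0.000243, edgeR). H1-4, the other linker gene tested, had 0.15 to 0.46 and 0.29 to 0.63 FPKM and did not pass (adjusted p = 0.456, edgeR). H1-1, H1-3 and H1-5 were at or under 0.17 FPKM in each library.

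Of the 16 H2A genes 9 were tested, 5 rose and none fell, with a median log2 fold change of 1.43. H2AC6 had 1.46, 2.39 and 2.1 FPKM in parental cells, 29.4 in CR, 16.5 and 20.1 in PR and 23.6 in DR. The groups were far apart, and the log2 fold change was 3.40 ± 0.32 (SE, adjusted p = 0.00019, edgeR). H2AC18 and H2AC19, a duplicated pair on chromosome 1, rose to nearly the same level. H2AC18 had 2.30 to 2.55 FPKM in parental and 13.1 to 25.0 FPKM in drug-resistant cells (log2 fold change 2.76 ± 0.27). H2AC19 had 2.22 to 2.38 and 13.4 to 24.4 FPKM (2.83 ± 0.26). These 2 genes cannot be separated with confidence, since 100% and 96.9% of the 75-base windows of their transcripts also occur in another gene. H2AC8 rose by 2.46 and H2AC13 by 1.43 on the log2 scale (H2AC13 did not pass without parental replicate 2). H2AC14, H2AC15, H2AC17 and H2AC20 did not pass (adjusted p = 0.192 to 0.729, edgeR).

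H2B had the highest parental level and the most genes that rose: 11 of 17 were tested, 9 rose and none fell. H2BC12 had 44.8, 53.5 and 35.0 FPKM in parental cells and 92.9 in CR, 69.5 and 84.3 in PR and 102.3 in DR. Its log2 fold change of 0.88 ± 0.21 (SE, adjusted p = 0.0106, edgeR) was the lowest of the 23, and 50.5% of the windows of its annotated transcript occur in another gene. H2BC21, at the chromosome 1 cluster, had 0.97, 0.95 and 2.00 FPKM in parental cells and 15.3 in CR, 16.1 and 16.4 in PR and 13.3 in DR. The 4 drug-resistant values lay close together, and the log2 fold change was 3.40 ± 0.32 (adjusted p = 0.000189, edgeR). H2BC5 went from 2.55 to 3.01 FPKM in parental to 15.5 to 23.5 FPKM in drug-resistant cells (2.71 ± 0.24). H2BC4 and H2BC8 rose by 2.87 and 2.95, H2BC18 by 2.12, and H2BC7, H2BC13 and H2BC15 by 1.68 to 1.70 on the log2 scale. H2BC13 did not pass without PR replicate 2 or any one parental library, nor H2BC7 without either PR or any one parental library. H2BC9, with 0.87 to 2.02 FPKM in parental and 0.16 to 1.17 FPKM in drug-resistant cells, had a log2 fold change of -1.28 ± 0.56 and did not pass (adjusted p = 0.103, edgeR), and neither did H2BC17.

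H3 was the class with calls in both directions, 4 up and 3 down of 8 tested. H3C4 had 3, 3 and 9 reads in parental cells and 128 in CR, 140 and 102 in PR and 188 in DR. The log2 fold change, 4.60 ± 0.50 (SE, adjusted p = 0.000266, edgeR), was the highest of all 37. All 75-base windows of its annotated transcript occur in another gene too. H3C6 had 0.37, 0.47 and 0.37 FPKM in parental cells and 2.89 to 3.54 FPKM in drug-resistant cells (2.91 ± 0.24). H3C10 rose by 1.72 and H3C2 by 1.43 on the log2 scale. H3C7 had 34, 19 and 15 reads in parental cells, 0 in CR, 5 and 3 in PR and 0 in DR, and its log2 fold change was -3.55 ± 0.91 (adjusted p = 0.0136, edgeR). H3C14 and H3C15 had log2 fold changes of -1.88 and -2.36, from 10 to 14 reads to 1 to 5 reads a library. These 2 genes share all their 75-base windows with another gene, and the 3 falls rest on few reads. Without parental replicate 1, or without parental replicate 2, none of the 3 passed, and H3C14 also did not pass without parental replicate 3, CR or PR replicate 2. H3C2 did not pass when any one library other than DR was left out.

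Of the H4 genes 7 of 14 were tested, 4 rose and none fell. H4C8 had 0.62, 0.41 and 1.01 FPKM in parental cells and 15.1 in CR, 9.67 and 12.1 in PR and 11.1 in DR. Parental and drug-resistant values did not overlap, and the log2 fold change was 3.97 ± 0.41 (SE, adjusted p = 0.000233, edgeR). H4C15 went from 2.12 to 2.60 FPKM to 8.09 to 12.0 FPKM, and H4C14 from 2.06 to 2.46 FPKM to 6.01 to 11.1 FPKM. In the least shared transcript of each, 95.0% and 91.8% of the windows occur in another gene, and in their other transcripts 100%. H4C5 rose by 1.71 on the log2 scale. H4C12, the H4 gene with 1.42 to 2.23 FPKM in parental and 1.32 to 2.1 FPKM in drug-resistant cells, had a log2 fold change of -0.20 ± 0.36 and did not pass, like H4C4 and H4C11.

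**Figure D2:**
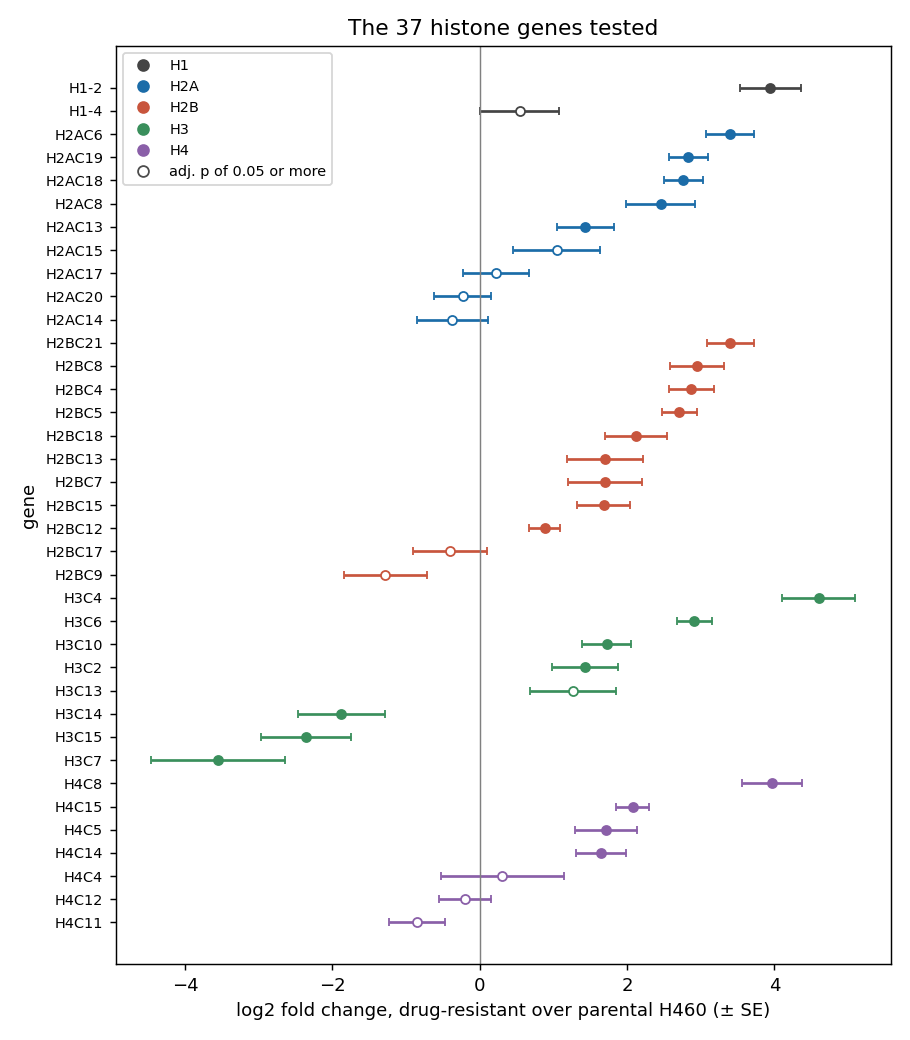
Points give the log2 fold change of drug-resistant over parental H460 for the 37 tested histone genes (colour, class), bars the standard error, and open points an adjusted p of 0.05 or more. H3C4 stands highest at 4.60 and H3C7 lowest at -3.55.

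**Figure D3:**
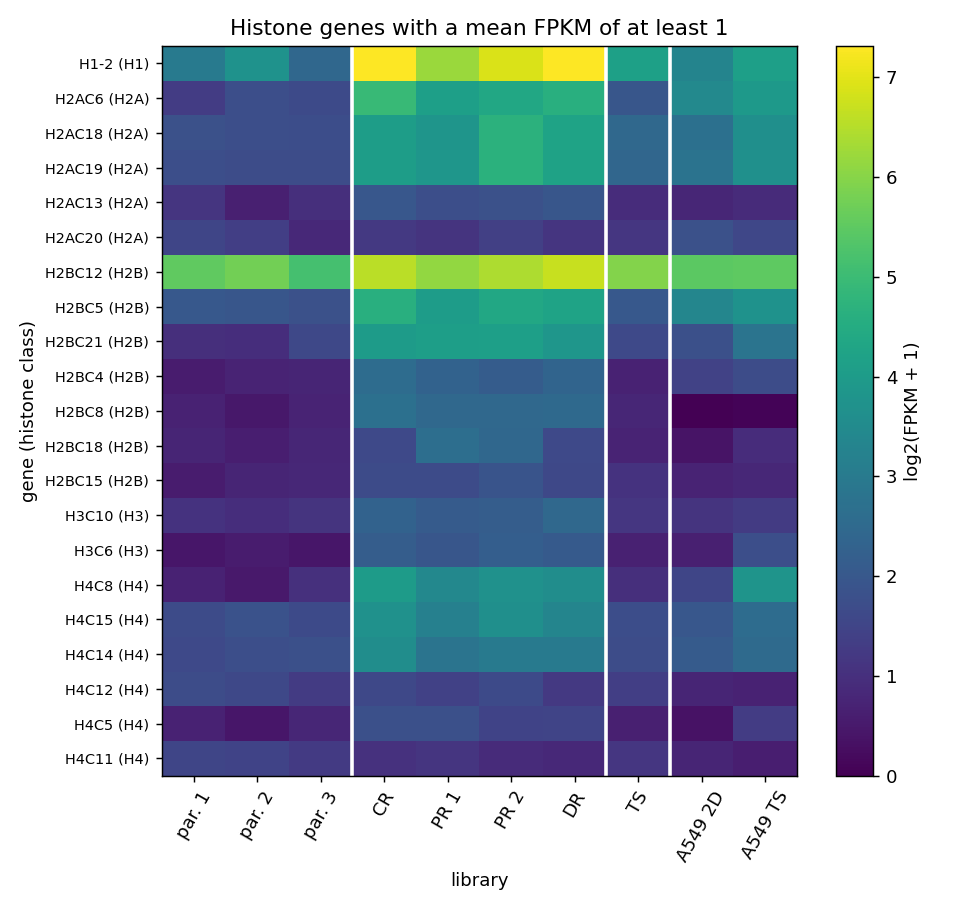
Colour gives log2(FPKM + 1) of the 21 genes with a mean of at least 1 FPKM (rows, by class) in the 10 libraries (columns), 1 value a cell with no error. H1-2 reaches 158 FPKM in DR, while H4C11 and H4C12 stay under 2.3 FPKM throughout.

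The calls were spread over both clusters: 6 of 10 tested genes on chromosome 1 and 17 of 27 on chromosome 6 rose. Among 11 pairs of an H2A and an H2B gene that start head to head 194 to 248 bases apart, both rose in the pairs H2AC6 and H2BC4, H2AC8 and H2BC8, and H2AC13 and H2BC13. In 2 other pairs with both genes tested, the H2B gene alone passed. H2BC21 rose by 3.40 and H2AC20, 236 bases away, had -0.23 ± 0.39 (adjusted p = 0.671, edgeR). H2BC15 rose, and H2AC15 had 1.04 ± 0.59 (adjusted p = 0.192, edgeR). H2AC12, the partner of the abundant H2BC12, had 8, 8 and 7 reads in parental cells and 0 to 2 in drug-resistant cells, too few for the test. The difference within pairs was not tested.

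**Figure D4:**
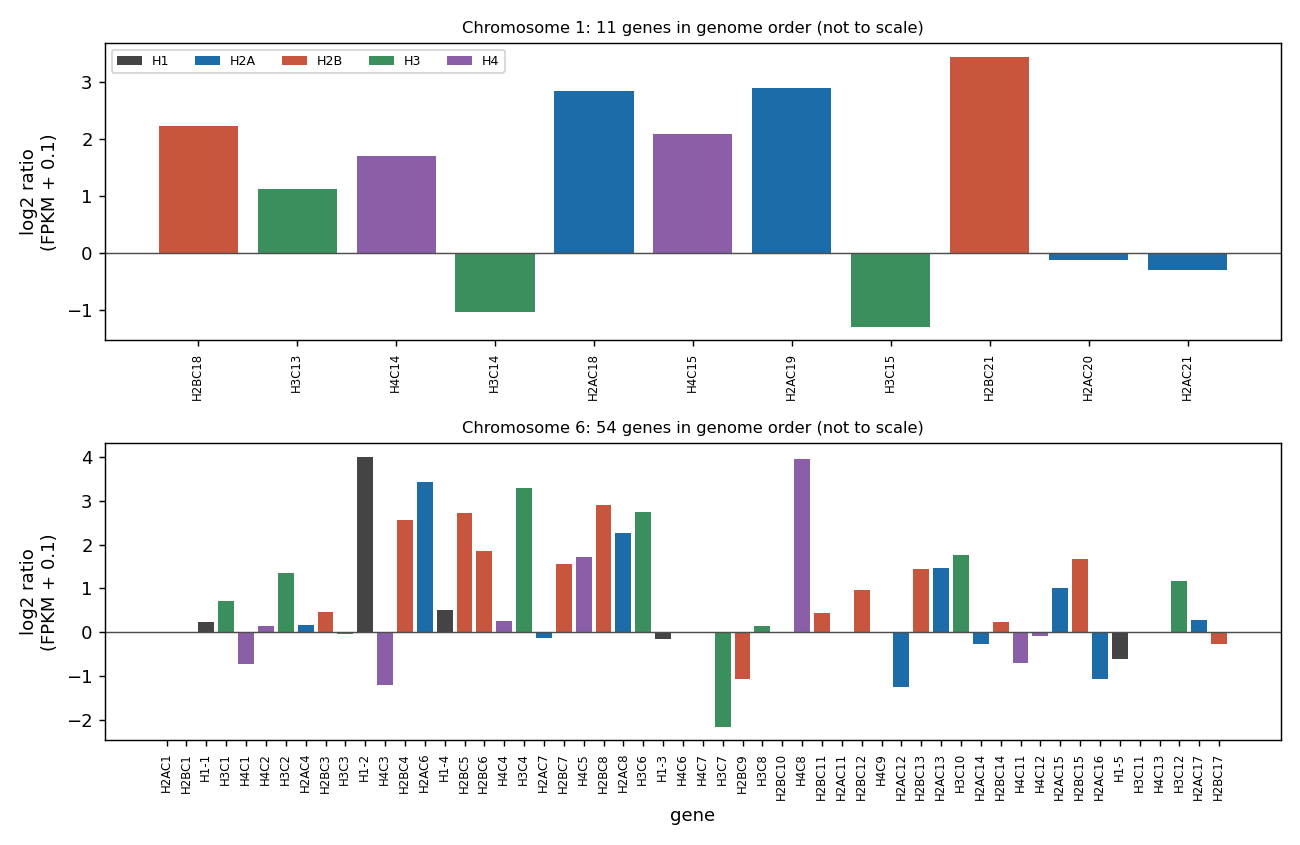
Bars give the log2 ratio of mean FPKM + 0.1 (4 drug-resistant over 3 parental H460 libraries) for the 65 genes in genome order on chromosomes 1 (upper) and 6 (lower), coloured by class and not spaced to scale, with no error. H2BC21 stands far above 0 beside H2AC20, which is near 0 and did not pass the test.

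Transcript length went with the calls as a description. Of the 60 core genes, 22 have a GENCODE transcript over 600 bases, a cut on annotated length only. In that set 17 were tested, 14 rose and 2 fell, with a median log2 fold change of 2.08. Of the 38 without one, 18 were tested, 8 rose and 1 fell, with a median of 0.963. The 6 genes listed as background for a known polyadenylated form (H1-2, H2AC6, H2BC4, H2BC5, H2BC12 and H2BC21) all rose, with a median of 3.13. That list was drawn up with earlier results of these data known, so its direction is not independent evidence.

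Overlapping genes limit some of these values. The H4C9 gene lies within H2BC12, H2AC7 within H3C4, and H2AC19 and H3C15 within H4C15, and H2BC18 overlaps FCGR1A over 17916 bases. Whether the counting used strand is not stated, so reads of these pairs cannot be assigned with certainty. H3C4 and H2AC7 lie on the same strand, and strand would not separate their reads in any case. H1-2, H2AC6 and H2AC8 share no 75-base window with another gene.

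Genes that work with the clusters mostly moved the other way. Of 15 S phase genes, 14 fell and none rose. MCM2, a helicase subunit of replication, had 44.3, 28.7 and 31.8 FPKM in parental cells and 7.98 in CR, 9.91 and 6.14 in PR and 6.96 in DR, a log2 fold change of -2.29 ± 0.23 (SE, adjusted p = 0.000229, edgeR). PCNA, the sliding clamp, had a log2 fold change of -1.10, and RRM2, CDT1 and MCM7 had -3.10, -2.90 and -2.40. Of 20 histone chaperone genes, 16 fell and none rose, led by HJURP, ASF1B, CHAF1B and CHAF1A, with log2 fold changes of -2.97 to -1.98.

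Of 16 genes for histone transcription and RNA 3′ end processing, 9 fell and 1 rose. SLBP had 27.5, 30.8 and 17.0 FPKM in parental cells and 11.1 in CR, 13.7 and 10.9 in PR and 11.7 in DR, and fell by 1.10 ± 0.22 on the log2 scale (adjusted p = 0.00462, edgeR). NPAT, the coactivator of the clusters, fell by 1.03 ± 0.28 (adjusted p = 0.0192, edgeR), and ERI1, LSM11 and CASP8AP2 had -1.35 to -1.19. HINFP, a factor for H4 promoters named here after its value was seen as the only gene of this list that rose, changed by 0.68 ± 0.18. Of 11 histone variant genes, 7 fell and none rose. CENPA, the centromeric H3, had a log2 fold change of -3.41, H2AZ1 of -2.54, H2AX of -2.11 and H2AZ2 of -1.20.

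**Figure D5:**
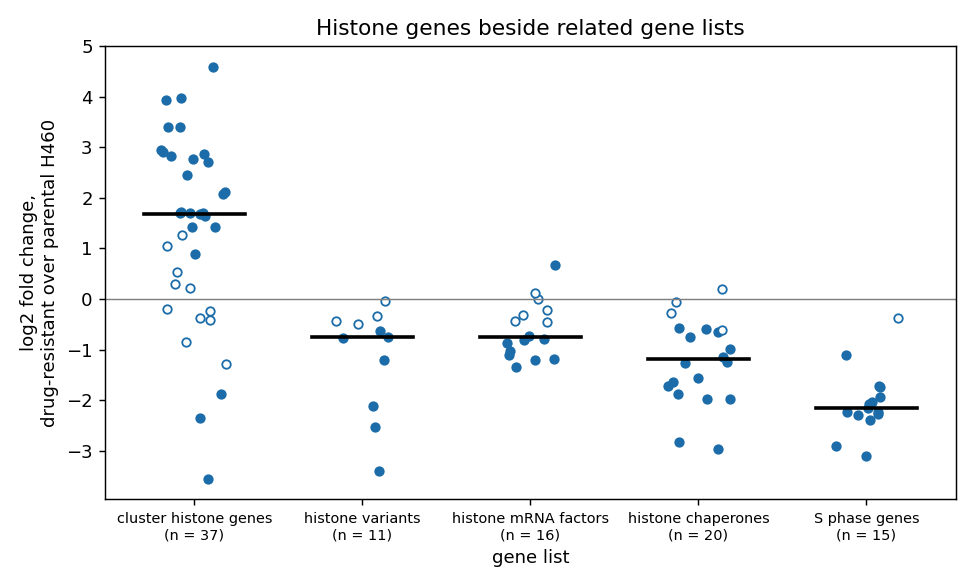
Points give the log2 fold change of drug-resistant over parental H460 for the tested cluster genes (n = 37) and 4 related lists, filled where the adjusted p was under 0.05, with the median as a bar (horizontal scatter is for display). The histone median is 1.68, and those of the variants, mRNA factors, chaperones and S phase genes are -0.75, -0.76, -1.19 and -2.16.

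The libraries carry 2 forms of name, and each form holds both groups (1 drug-resistant and 2 parental libraries, or 3 and 1). With the form of name as a covariate in the edgeR fit, 21 histone genes rose and 2 fell, and 3 of the 26 calls were lost. The median fold of the 23 genes was 5.42 within the first form and 5.53 within the other. The 23 were picked by the test on these same libraries, and their groups do not overlap. Neither the size nor the direction of their fold within a form thus carries further information.

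For single drugs, PR alone had 2 libraries. Against parental cells 22 of the 41 histone genes tested rose and H3C7 and H3C15 fell, against 17.5% higher and 10.6% lower of 19430 genes (edgeR, same test), and 20 of the 23 genes above were among those 22. The others were H2BC6, with 1, 0 and 2 reads in parental cells and 22 and 19 in PR, and H3C12. Without parental replicate 2 the counts were 16 up and 0 down, against 12.4% and 6.17% of all genes. Without parental replicate 1 they were 22 and 1, against 19.0% and 10.4%. With either PR library left out, fewer genes passed, among the histone genes and among all genes. The median log2 fold change of the histone genes was then 1.35 without PR replicate 1 and 1.41 without PR replicate 2. That of all genes was 0.07 and 0.04. CR and DR have 1 library each and no test. More than 2-fold above the parental mean on FPKM + 1 were 18 of 26 genes in CR and 17 of 26 in DR, against 5.84% and 5.76% of genes. None was as far below in CR and H2BC9 was in DR, against 7.05% and 5.68%. A gene entered with 1 FPKM in any library compared, and the shares of all genes used the same rule. Some histone genes, such as H2AC8, H2BC4, H2BC8 and H3C4, reached it only in the drug-resistant library. Such genes could not count as lower, so these counts lean upward. The comparisons share the parental libraries, and the PR, CR and DR libraries are those of the first comparison too. The overlap of the PR calls with the 23 genes is thus partly built in and is not independent evidence.

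PR was set against CR and DR to ask whether a microtubule drug and 2 drugs that damage DNA left different histone levels. Of 37 genes tested none passed, against 0.245% of 19601 genes in either direction (0.224% higher and 0.0204% lower). By unadjusted p, 6 of the 37 were under 0.05, against 4656 of the 19601 genes (edgeR). H1-2 was lower in PR (log2 fold change -0.86 ± 0.22, adjusted p = 0.102), as were H2AC6 (-0.69 ± 0.20, adjusted p = 0.125) and H2BC12 (-0.49 ± 0.14, adjusted p = 0.12). H2BC18 had 5.31 and 4.39 FPKM in PR and 2.07 in both CR and DR (0.81 ± 0.27, adjusted p = 0.156, edgeR), and H2BC6 and H3C12 were also higher. DESeq2 called H1-2 and H2AC6 lower (adjusted p = 0.00287 and 0.0407), where it called 3.75% of all genes lower. Limma called H2BC18 higher, by 0.92 on the log2(FPKM + 1) scale (adjusted p = 0.0415), where it called 1.04% of all genes higher. The calls thus differed between tools.

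TS culture was compared with adherent culture over both lines, with 1 TS library each. Of 38 genes tested none passed, against 0.191% of 18372 genes (0.147% higher and 0.0435% lower). By unadjusted p, 4 of the 38 were under 0.05, against 1363 of the 18372 genes (edgeR). The 4 were H2AC18 (log2 fold change 1.00 ± 0.34, adjusted p = 0.474), H2AC19 (0.96 ± 0.34), H1-2 (1.07 ± 0.39) and H3C6 (1.24 ± 0.49). DESeq2 called H2AC18 higher (adjusted p = 0.0366), where it called 1.67% of all genes higher. The summed level was 119.9 FPKM in H460 TS, 1.37-fold the parental mean, and 162 against 113 FPKM in A549, 1.43-fold.

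Taken by line, with no test, H1-2 was the only one of 18 genes more than 2-fold higher in H460 TS (17.0 FPKM), against 1.93% of genes. In A549, 3 of 19 were, against 6.70%. H4C8 went from 1.87 to 12.7 FPKM, H2BC21 from 2.43 to 6.05 FPKM and H3C6 from 0.55 to 2.36 FPKM. None was more than 2-fold lower in either line, against 1.97% of genes in H460 and 3.02% in A549. Some genes, such as H2BC15 in H460 and H3C6 and H4C5 in A549, reached the 1 FPKM needed to enter only in TS. These could not count as lower.

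The 2 lines differed in which genes had polyadenylated RNA. A549 gave only 2 libraries, the difference was not tested, and the genes below were picked by their reads. H2AC11 had 52 and 48 reads in A549 2D and TS, 1 in H460 TS and 0 in the 7 other H460 libraries. H2BC11, its head-to-head partner, had 66 and 74 reads in A549, 19 in H460 TS and 1 to 6 in the other H460 libraries. H4C9 had 9 and 12 reads in A549 and 0 in H460. Conversely H2AC8 and its partner H2BC8 had 0, 0 and 0, 2 reads in A549 2D and TS, but 12 to 122 and 14 to 239 in H460. H3C4 had 0 and 2 reads in A549. A549 2D had 5 of 20 genes more than 2-fold above the H460 parental mean (H2AC6, H2AC11, H2AC19, H2BC5 and H2BC11) and H2BC9 below, against 11.2% and 7.73% of genes. H2AC11 and H2BC11 reached the 1 FPKM needed to enter only in A549 2D, so they could not count as below. H2AC6 stood at 9.89 FPKM there, against 1.99 ± 0.48 FPKM (SD, n = 3) in parental H460.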

How the data were processed

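Poly(A) RNA was sequenced from 10 libraries (TruSeq mRNA). The authors deposited, per gene, the read count, FPKM and TPM of each library. The submitters' processing notes list bcl2fastq 1.8.4, Trimmomatic, HISAT2 2.1.0, StringTie 2.1.3b and GRCh38, and strand and the handling of shared reads are not given in the sources used here. Counts were tested as deposited, FPKM served as levels and TPM was not used further. The main test was edgeR 4.0.16 (R 4.3.3; quasi-likelihood, TMM, filterByExpr, Benjamini-Hochberg over all genes tested, 0.05). Standard errors are the log2 fold change over the square root of F. DESeq2 1.42.0 and limma 3.58.1 were alternatives. Single libraries were compared as log2(FPKM + 1) with a limit of 2-fold, among genes of at least 1 FPKM in a library compared. The depth of 59499787 to 89541774 reads leaves genes of a few reads imprecise. Genes named with values had a mean of at least 1 FPKM or an adjusted p under 0.05, plus up to 4 of each related list, SLBP, NPAT, H2AX, PCNA and MCM2, and some listed genes are not reported here. Members and lists were chosen with earlier results of these data known. Transcripts and promoters came from GENCODE 29 and RefSeq, matched by NCBI Gene ID (65 of 65 genes).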

Additional observations from a re-analysis of the deposited data

Results flagged for a closer look

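In the 4 drug-resistant libraries, 43 values (37 tested genes and 6 class sums) were searched for a library far from the others by Dixon's ratio of gap to range at a limit that chance passes in about 1 of 20 groups. H2AC8 was low in PR replicate 1, at 1.14 FPKM against 2.15 to 2.24 FPKM in the other 3, a ratio of 0.91. H4C4 was high in PR replicate 1, at 0.45 FPKM against 0.26 to 0.28 FPKM, a ratio of 0.944. The cause was not tested.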

How the results depend on the processing

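Between drug-resistant and parental H460, 19 of the 26 called genes kept their call in every alternative that tested them and none reversed. H2AC13, H2BC7, H2BC13, H3C2, H3C7, H3C14 and H3C15 lost it in at least one. The count of genes that rose was 19 to 23 over the alternatives. The count that fell was 1 with DESeq2, 0 with limma on log2(FPKM + 1) or log2(FPKM + 0.1), where H3C7, H3C14 and H3C15 were below the entry of 1 FPKM and were not tested, 1 with no filter on low counts, and 0 to 3 with a library left out (0 without parental replicate 1 and without parental replicate 2). The median over all genes moved from 0.06 to 0.234 with upper-quartile normalization and that of the tested histone genes from 1.68 to 1.85, with DESeq2 they were 0.537 and 1.15, and with no filter 0.493 and 1.05. H2AC17 changed sign with the form of library name as covariate (-0.033), and ranged from -0.072 to 0.67 with a library left out. H2AC20 ranged from -0.53 to 0.020 and H4C4 from -0.31 to 0.75 with a library left out, and none of the 3 was called. For PR against parental, the count that rose was 12 to 22 with a library left out, and the count that fell was 0 to 2; it was 1 with DESeq2, library totals, upper-quartile normalization and no filter, and 0 with limma at either pseudocount, which did not test H3C7 and H3C15. Labels give the parental and PR libraries the numbers 1 and 2 in common, but the deviations of same-numbered libraries correlated at 0.132 over 12280 genes with 2 pairs, too few to take a pairing from the data. Same-numbered libraries also share the form of library name, and the labels do not say what it marks. The fit with the replicate block gave 20 up and 1 down, against 20 and 2 for the same libraries without it. PR against CR and DR gave 2 lower with DESeq2, 1 higher with limma at either pseudocount and 1 lower with no filter (H1-2), against 0. TS against 2D gave 1 higher with DESeq2. Among single libraries, a pseudocount of 0.1 gave 1 gene lower in CR against 0, 8 higher and 3 lower in A549 2D against 5 and 1, and 6 higher in A549 TS against 3. With parental replicate 3 as control, 0 were lower in DR and A549 2D, and with parental replicate 2 0 were higher in H460 TS. The causes were not tested. Genes of few reads, among them H3C7, H3C14 and H3C15, are limited by depth.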
